A study of Mus musculus with 18 samples.

Results

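The Bcl2 family decides whether a thymocyte lives or dies, and 10 of its genes were followed here across age in the mouse thymus: the pro-survival genes Bcl2, Bcl2l1 and Mcl1, the effectors Bax and Bak1, and the BH3-only genes Bcl2l11, Bbc3, Pmaip1, Bad and Bid. They were chosen by name: every non-control array probe annotated with 1 of these 10 gene names was taken, which gave 13 probes of 41174. All 13 passed the filter on dim probes. The study compared thymocytes of C57BL/6 mice, all without genetic change or drug treatment as far as the labels say, at 6, 16 and 24 months (3 mice per age, labelled with Cy3) with 1 month thymocytes (Cy5) on 9 Agilent 2-colour arrays. The design text calls the 1 month RNA a pool while the sample labels number single 1 month mice. With nothing in the files to decide between these, it was treated as 1 control sample. No array had the dyes swapped, so age and dye cannot be told apart in any comparison with 1 month, whereas comparisons among the older ages are free of this.

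Mitochondrial cell death runs through this family. Bax and Bak1 encode the effectors that open the outer mitochondrial membrane, Bcl2, Bcl2l1 (Bcl-xL) and Mcl1 hold them back, and the BH3-only proteins relay death signals by binding the pro-survival proteins or the effectors. In the thymus most cells die during selection: Bcl-xL keeps double-positive thymocytes alive, Bcl2 is more abundant in mature single-positive cells, and Bim, the product of Bcl2l11, is needed to delete self-reactive cells.

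Among the members, Bax, Bak1 and Bid were the genes past the test against 1 month at more than 1 age, so the promoters of these 3 are shown. They are 300-base windows from upstream of the annotated start to just after it (RefSeq, build GRCm38), written 5′ to 3′ on the gene's strand, with capitals marking a GC box (GGGCGG or its reverse complement CCGCCC) or an E-box (CACGTG).
Bax, chr7:45466849-45467148, minus strand: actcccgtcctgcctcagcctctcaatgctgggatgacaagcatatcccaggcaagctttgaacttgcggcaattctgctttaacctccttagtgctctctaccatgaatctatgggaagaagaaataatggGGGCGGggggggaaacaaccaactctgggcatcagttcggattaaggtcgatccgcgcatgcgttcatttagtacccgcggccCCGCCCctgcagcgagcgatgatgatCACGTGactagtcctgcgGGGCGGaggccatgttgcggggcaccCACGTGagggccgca
Bak1, chr17:27028578-27028877, minus strand: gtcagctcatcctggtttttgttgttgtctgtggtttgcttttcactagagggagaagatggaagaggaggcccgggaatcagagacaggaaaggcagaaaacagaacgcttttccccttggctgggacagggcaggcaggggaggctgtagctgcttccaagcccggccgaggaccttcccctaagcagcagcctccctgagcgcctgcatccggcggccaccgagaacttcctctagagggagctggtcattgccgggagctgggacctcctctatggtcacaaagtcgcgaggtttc
Bid, chr6:120916775-120917074, minus strand: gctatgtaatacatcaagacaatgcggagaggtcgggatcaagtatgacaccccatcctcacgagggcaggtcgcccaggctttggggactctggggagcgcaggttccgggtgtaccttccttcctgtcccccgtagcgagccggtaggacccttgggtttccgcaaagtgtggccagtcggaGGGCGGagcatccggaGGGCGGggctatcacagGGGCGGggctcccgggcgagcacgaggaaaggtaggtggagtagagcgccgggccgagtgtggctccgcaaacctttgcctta
The Bax window held 3 GC boxes and 2 E-boxes, the Bid window 3 GC boxes and no E-box, and the Bak1 window neither. Searched on both strands, GC boxes were present in 35.66% and the E-box in 7.15% of 32851 promoter windows of the same length. Neither CCAAT (37.41% of windows) nor TATAAA (13.62%) was found in the 3 windows, and the marked matches did not overlap each other. These matches describe the letters of the windows and were not tied to the expression values below.

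Bax was the member with the largest called change. Its processed signals, in arbitrary units after background subtraction and dye normalization by the scanner software, were 3774, 3530 and 2649 in the 6 month mice, against 2645, 2391 and 2079 for 1 month RNA on the same arrays. At 16 months they were 3043, 4214 and 4545, against 1701, 2225 and 2782 at 1 month. At 24 months they were 3325, 2216 and 3868, against 2279, 1583 and 2349 at 1 month. The older mouse was brighter than 1 month on each of the 9 arrays. As log2 ratios of the older mouse to 1 month, the arrays gave 0.51, 0.56 and 0.35 at 6 months, 0.84, 0.92 and 0.71 at 16 months, and 0.54, 0.48 and 0.72 at 24 months. Tested across all probes with limma, Bax rose at each age: by 0.47 ± 0.07 at 6 months (SE, n = 3; adjusted p = 0.00847), by 0.82 ± 0.07 at 16 months (SE, n = 3; adjusted p = 0.00133) and by 0.58 ± 0.07 at 24 months (SE, n = 3; adjusted p = 0.00295). The levels were 39.0%, 76.9% and 49.8% above 1 month, and the 95% intervals of the log2 ratio ran from 0.32 to 0.63, from 0.67 to 0.98 and from 0.43 to 0.74. In whole thymocyte RNA, fewer cells of a type and less RNA per cell cannot be told apart, nor can more of either. The 6 month call was lost without replicate 2 of that age (0.43, adjusted p = 0.0728) and with the erythroid marker level as a covariate (0.54, adjusted p = 0.0622).

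Bak1, the second effector, was also brighter in the older mouse on all 9 arrays. Its log2 ratios were 0.62, 0.38 and 0.17 at 6 months, 0.19, 0.68 and 0.43 at 16 months, and 0.31, 0.30 and 0.27 at 24 months. The 3 arrays of 24 months lay close together, while those of 6 and 16 months spread widely and overlapped them. Bak1 rose at 6 months (0.39 ± 0.10, SE, n = 3; adjusted p = 0.0469 in limma) and at 16 months (0.43 ± 0.10, SE, n = 3; adjusted p = 0.0273). At 24 months its value of 0.29 ± 0.10 missed the threshold (adjusted p = 0.0722). The 6 month call held under 6 of 16 alternative settings and the 16 month call under 12 of 16, with the same sign in all 16 for both. The 16 month call was lost without replicate 2 (0.31, adjusted p = 0.164) or replicate 3 of that age (0.43, adjusted p = 0.0955). It was also lost with the erythroid covariate (0.47, adjusted p = 0.0546) and with the replicate number as a block (0.43, adjusted p = 0.0560). With the erythroid covariate the 6 month value was 0.33 (adjusted p = 0.285). Without replicate 1 of 6 months the 6 month value was 0.27 (adjusted p = 0.199).

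**Figure D1:**
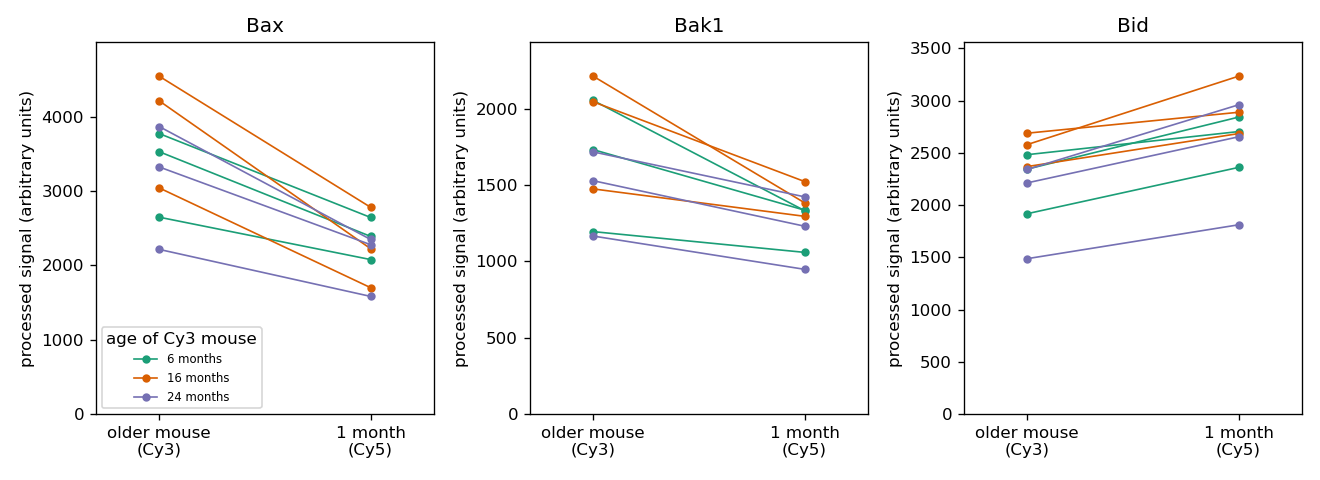
Processed signal (arbitrary units, axis from 0) of Bax, Bak1 and Bid, with the older mouse (Cy3) on the left and 1 month RNA (Cy5) of the same array on the right; each line is 1 of 9 arrays, coloured by the age of the older mouse. The lines of Bax and Bak1 run down to 1 month on all 9 arrays and those of Bid run up on all 9.

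Bid, a BH3-only protein that caspase-8 cleaves to link death receptors to mitochondria, moved the other way. Its signals were 2482, 2344 and 1917 in the 6 month mice, against 2703, 2841 and 2360 at 1 month. At 24 months they were 2340, 1487 and 2212, against 2959, 1811 and 2653 at 1 month. The log2 ratios were -0.12, -0.28 and -0.30 at 6 months, -0.18, -0.10 and -0.33 at 16 months, and -0.34, -0.28 and -0.26 at 24 months, so the older mouse was dimmer on each array and the 3 ages overlapped. Bid fell at 6 months (-0.23 ± 0.06, SE, n = 3; adjusted p = 0.0395 in limma), at 16 months (-0.20 ± 0.06, SE, n = 3; adjusted p = 0.0471) and at 24 months (-0.30 ± 0.06, SE, n = 3; adjusted p = 0.0123). At 24 months this is 0.815 times the 1 month level (95% interval 0.743 to 0.895). The 6 month call held under 8 of 16 alternatives, the 16 month call under 4 of 16 and the 24 month call under 15 of 16, with the same sign throughout. With the erythroid covariate the calls at 6 months (-0.18, adjusted p = 0.282) and 16 months (-0.24, adjusted p = 0.0608) were lost. At 16 months the value without replicate 3 was -0.14 (adjusted p = 0.213), and the exception at 24 months was the fit without 24 month replicate 1 (-0.27, adjusted p = 0.0645).

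Read over the whole family, 3 of the 13 probes passed at 6 months, Bax and Bak1 higher and Bid lower, where 12.4% of all 37448 tested probes did (7.61% higher, 4.76% lower). At 16 months Bax and Bak1 were again higher and Bid lower, against 18% of all probes (11.4% higher, 6.59% lower). At 24 months 4 member probes passed, Bax and a Bcl2 probe higher, Bid and Bcl2l1 lower, against 24.9% of all probes (11.6% higher, 13.3% lower). All 3 arrays of an age were on one side of 0 for 8, 9 and 9 of the 13 probes at 6, 16 and 24 months, beside 57.2%, 59% and 56% of all tested probes. The split of calls over all probes depended on the scaling. At 6 months 2851 were higher and 1781 lower, and with the authors' scores 2475 higher and 2788 lower. At 16 months 4277 were higher and 2469 lower, with the authors' scores 3476 and 4132, and with normexp and loess 4846 and 4265. At 24 months 4357 were higher and 4978 lower, with median centring 4813 and 4330, and with the authors' scores 4152 and 6317. The called member values kept their sign under each scaling. These shares of the members lie near those of all probes, so the counts do not set the family apart. The median log2 ratio of the 13 probes was 0.04, -0.15 and -0.10 at 6, 16 and 24 months, beside -0.01, -0.01 and -0.02 over all tested probes. Both effector probes were above 0 on all 9 arrays, as was 1 of 5 pro-survival probes and 0 of 6 BH3-only probes, beside 12.6% of all tested probes. Below 0 on all 9 arrays were 2 of 6 BH3-only probes, of Bid and Bad, beside 13.6% of all tested probes. The 3 comparisons with 1 month share that material only as far as the 1 month RNA was one pool, and their values are given side by side for description.

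**Figure D2:**
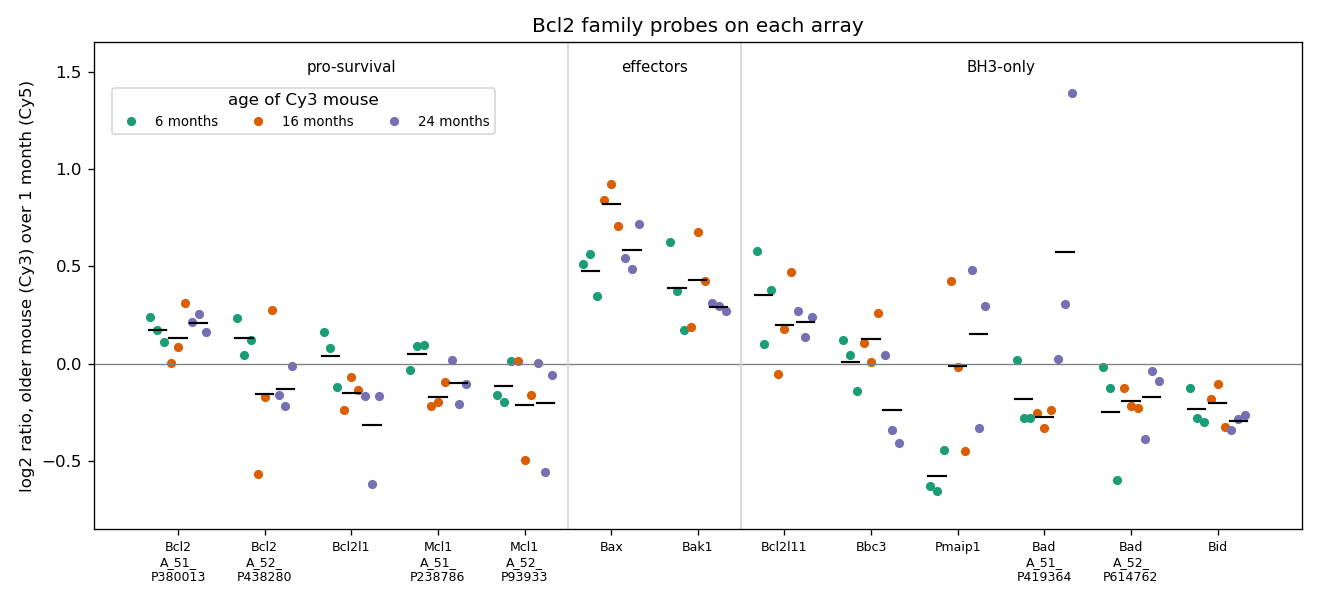
Log2 ratio of the older mouse (Cy3) to 1 month RNA (Cy5) for the 13 member probes, grouped by role; each point is 1 array, coloured by age from 6 to 24 months, and each bar is the mean of 3 arrays. The points of Bax and Bak1 lie above 0 on all 9 arrays and those of Bid below 0, while most other members straddle 0.

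Of the pro-survival genes, Bcl2 had 2 probes named for it, which did not behave alike. Probe A_51_P380013 gave log2 ratios of 0.24, 0.17 and 0.11 at 6 months, 0.00, 0.08 and 0.31 at 16 months, and 0.21, 0.25 and 0.16 at 24 months. All 9 values were above 0, the lowest on 16 month replicate 1. It rose at 24 months by 0.21 ± 0.06 (SE, n = 3; adjusted p = 0.0471 in limma), a call that held under 5 of 16 alternatives, with 0.17 at 6 months (adjusted p = 0.110) and 0.13 at 16 months (adjusted p = 0.182).

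Probe A_52_P438280 of Bcl2 gave 0.23, 0.04 and 0.12 at 6 months, -0.57, -0.17 and 0.28 at 16 months, and -0.16, -0.22 and -0.01 at 24 months, and passed at no age (adjusted p from 0.452 to 0.536). Its 24 month mean of -0.13 has the opposite sign to the 0.21 of the other probe. A further probe, A_52_P534870, carries a clone name in the array design but matches Bcl2 by its accession. It stands outside the members and is given for comparison. Its values were -0.65, -0.69 and -0.50 at 6 months, 0.08, -0.24 and -0.41 at 16 months, and -0.53, -0.92 and -0.08 at 24 months. It fell at 6 months (-0.61 ± 0.15, SE, n = 3; adjusted p = 0.0379 in limma) and at 24 months (-0.51 ± 0.15, SE, n = 3; adjusted p = 0.0432). The direction of Bcl2 relative to 1 month therefore differed by probe. Over the 9 arrays the 2 named probes had the same sign on 4, and A_51_P380013 and A_52_P534870 on 1.

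Bcl2l1, which encodes Bcl-xL, gave log2 ratios of 0.16, 0.08 and -0.12 at 6 months, -0.24, -0.07 and -0.14 at 16 months, and -0.16, -0.62 and -0.16 at 24 months. Replicate 2 of 24 months was the lowest of the 9, and the other 2 mice of that age lay within the 16 month values. Bcl2l1 fell at 24 months by 0.32 on the log2 scale (SE 0.10, n = 3; adjusted p = 0.0496 in limma), at 0.804 times the 1 month level (95% interval 0.688 to 0.940). Without replicate 2 the value was -0.16 (adjusted p = 0.201), and the call held under 2 of 16 alternatives. That array had the smallest share of features well above background in Cy3, 79.6%, against 85.9% to 94.2% on the other 8. A further probe matched to Bcl2l1 by accession, A_52_P510877, gave 0.23, 0.35 and -0.31 at 24 months and did not pass (0.09, adjusted p = 0.693).

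Mcl1, whose short-lived product is needed at several stages of T cell development, was measured by 2 probes. Probe A_51_P238786 gave -0.03, 0.09 and 0.09 at 6 months, -0.22, -0.19 and -0.09 at 16 months, and 0.02, -0.21 and -0.10 at 24 months. Its 16 month values were all below 0 and below those of 6 months, with a mean of -0.17 ± 0.06 (SE, n = 3) that missed the threshold (adjusted p = 0.0792 in limma). It passed at 16 months when signals were background-corrected with normexp and normalized by loess (-0.17, adjusted p = 0.0366). With the authors' scores it passed at 16 months (adjusted p = 0.0302) and at 24 months (adjusted p = 0.0489). Probe A_52_P93933 gave -0.16, -0.20 and 0.01 at 6 months, 0.02, -0.49 and -0.16 at 16 months, and 0.00, -0.55 and -0.06 at 24 months, with 1 low array at each of the later ages and no call. The Mcl1 probes had the same sign on 7 of 9 arrays.

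**Figure D3:**
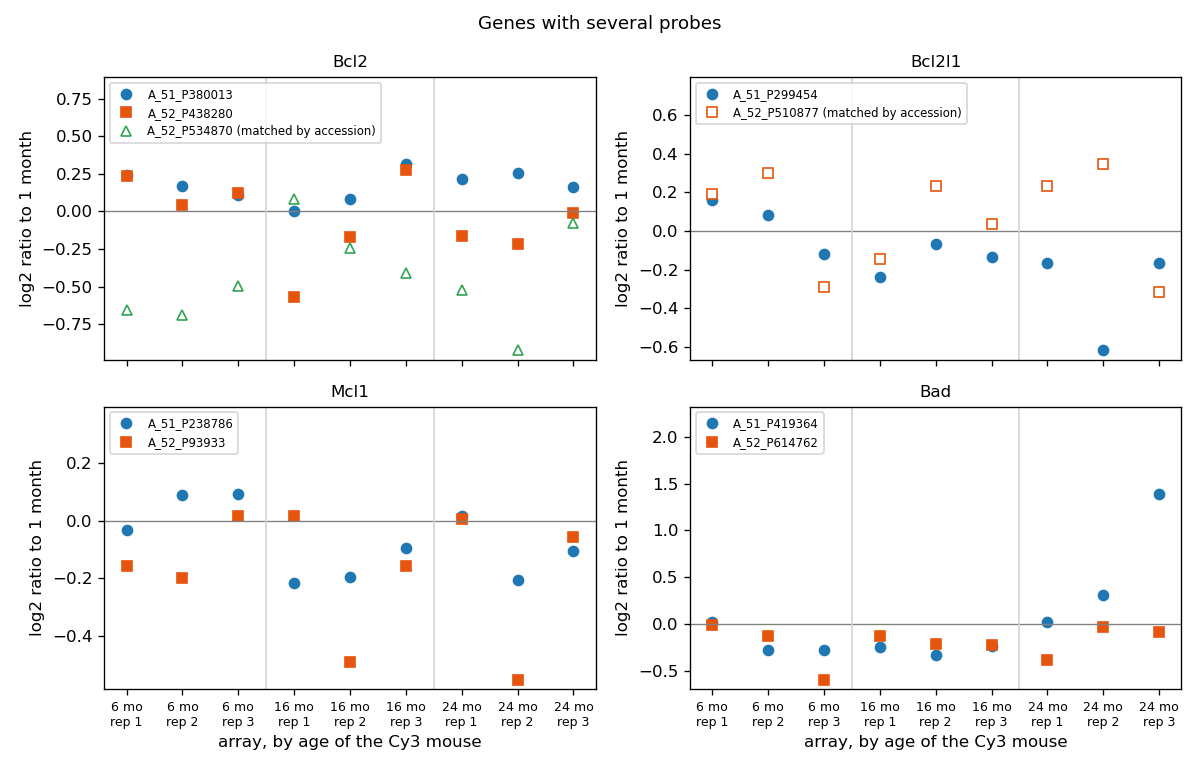
Log2 ratio to 1 month on each of the 9 arrays for the 4 genes with more than 1 probe; filled symbols are member probes and open symbols are probes matched to the gene by accession alone. The open triangles of Bcl2 lie below the filled circles on 8 of 9 arrays. The Bad probes have the same sign on 5 of 9 arrays and lie furthest apart on 24 month replicate 3.

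The remaining BH3-only genes did not pass against 1 month. Bcl2l11 gave 0.58, 0.10 and 0.38 at 6 months, -0.05, 0.18 and 0.47 at 16 months, and 0.27, 0.14 and 0.24 at 24 months. It was above 0 on all arrays but 16 month replicate 1, with means of 0.35, 0.20 and 0.22 and adjusted p-values of 0.0757, 0.248 and 0.185. Bbc3, which encodes Puma, a p53 target, gave 0.12, 0.05 and -0.14 at 6 months, 0.11, 0.01 and 0.26 at 16 months, and 0.04, -0.34 and -0.41 at 24 months. The 2 lowest values belong to 24 months, whose mean of -0.23 ± 0.10 (SE, n = 3) missed the threshold (adjusted p = 0.109 in limma) and passed without replicate 1 (-0.37, adjusted p = 0.0456), with the erythroid covariate (-0.22, adjusted p = 0.0409) and with the authors' scores (adjusted p = 0.0442).

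Pmaip1, which encodes Noxa, a p53 target that binds Mcl1, had age means spanning 0.73, the widest range among the members when each gene is read from its brightest probe (the dimmer Bad probe described below spanned more, 0.85). Its signals were 591, 597 and 585 in the 6 month mice, against 912, 939 and 796 at 1 month. At 16 months they were 1288, 952 and 794, against 958, 964 and 1084 at 1 month. At 24 months they were 1332, 541 and 1235, against 953, 680 and 1004 at 1 month. The 6 month mice were dimmer than 1 month on all 3 arrays, and the later ages held mice on both sides of it. The log2 ratios were -0.63, -0.65 and -0.44 at 6 months, 0.43, -0.02 and -0.45 at 16 months, and 0.48, -0.33 and 0.30 at 24 months. The 6 month mean of -0.57 ± 0.18 (SE, n = 3) missed the threshold (adjusted p = 0.0787 in limma) and passed without 24 month replicate 2 (adjusted p = 0.0459), which changes the shared estimate of the spread and not the value.

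Bad, whose product binds Bcl2 and Bcl-xL, had 2 probes. Probe A_52_P614762 was below 0 on all 9 arrays, from -0.60 to -0.01, and did not pass (means -0.25, -0.19 and -0.17 at 6, 16 and 24 months). Probe A_51_P419364 was the dimmest of its gene, with Cy3 signals from 112 to 393, and was not well above background on 24 month replicate 2. It gave 0.02, -0.28 and -0.28 at 6 months, -0.25, -0.33 and -0.23 at 16 months, and 0.02, 0.31 and 1.39 at 24 months. The single high array, 24 month replicate 3, set its 24 month mean of 0.57 ± 0.22 (SE, n = 3; adjusted p = 0.0900 in limma). Without that array the mean was 0.16 (adjusted p = 0.270).

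Between the older ages, where the dyes are the same on both sides, no member passed, and limma called 0% of the 37448 probes at 16 against 6 months, 0% at 24 against 6 months and 0% at 24 against 16 months. Unadjusted p-values under 0.05 were found for 2388, 3412 and 1786 probes in these comparisons (6.38%, 9.11% and 4.77%), and for 2, 3 and 3 of the 13 member probes. With normexp and loess the counts were again 0 after adjustment, and 3001, 3192 and 1645 before it. Groups of 3 mice thus left room for differences of the size given by the intervals below, and the p-values measure only the spread between these samples.

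At 16 against 6 months Bax was 0.35 higher on the log2 scale (95% interval 0.12 to 0.57; unadjusted p = 0.00704, adjusted p = 0.769 in limma). The 3 log2 ratios of 16 months, 0.71 to 0.92, lay above the 3 of 6 months, 0.35 to 0.56, a separation that 13.8% of all tested probes showed. At 24 against 16 months Bax differed by -0.24 (95% interval -0.46 to -0.02; adjusted p = 0.862 in limma), and at 24 against 6 months by 0.11 (95% interval -0.11 to 0.33). Mcl1 probe A_51_P238786 differed by -0.22 at 16 against 6 months (95% interval -0.40 to -0.03; adjusted p = 0.769), its arrays again not overlapping.

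At 24 against 6 months the widest gap was that of Bad probe A_51_P419364, 0.75 (95% interval 0.04 to 1.47; adjusted p = 0.545 in limma), followed by Pmaip1 with 0.73 (95% interval 0.12 to 1.33; adjusted p = 0.512). The Pmaip1 values of 24 months, -0.33 to 0.48, all lay above those of 6 months, -0.65 to -0.44. Bcl2l1 differed by -0.36 (95% interval -0.68 to -0.04; adjusted p = 0.532), and Bcl2 probe A_52_P438280 by -0.26, both with the 24 month arrays below those of 6 months. Of the 13 member probes, 2 lay above and 2 below without overlap, beside 15.7% of all tested probes in this comparison. The Bad probe was among those above, by a narrow margin (lowest 24 month value 0.0232, highest 6 month value 0.0220). For Bak1 and Bid the intervals at 24 against 6 months were -0.44 to 0.24 and -0.25 to 0.13, so neither gene was shown to change between these ages, nor to stay level within narrower bounds. At 24 against 16 months Bbc3 differed by -0.36 (95% interval -0.67 to -0.04; adjusted p = 0.862 in limma). Arrays did not overlap for 1 member probe, A_51_P419364 of Bad, beside 10.5% of all tested probes, and the median of the members was 0.02, against -0.02 over all probes.

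**Figure D4:**
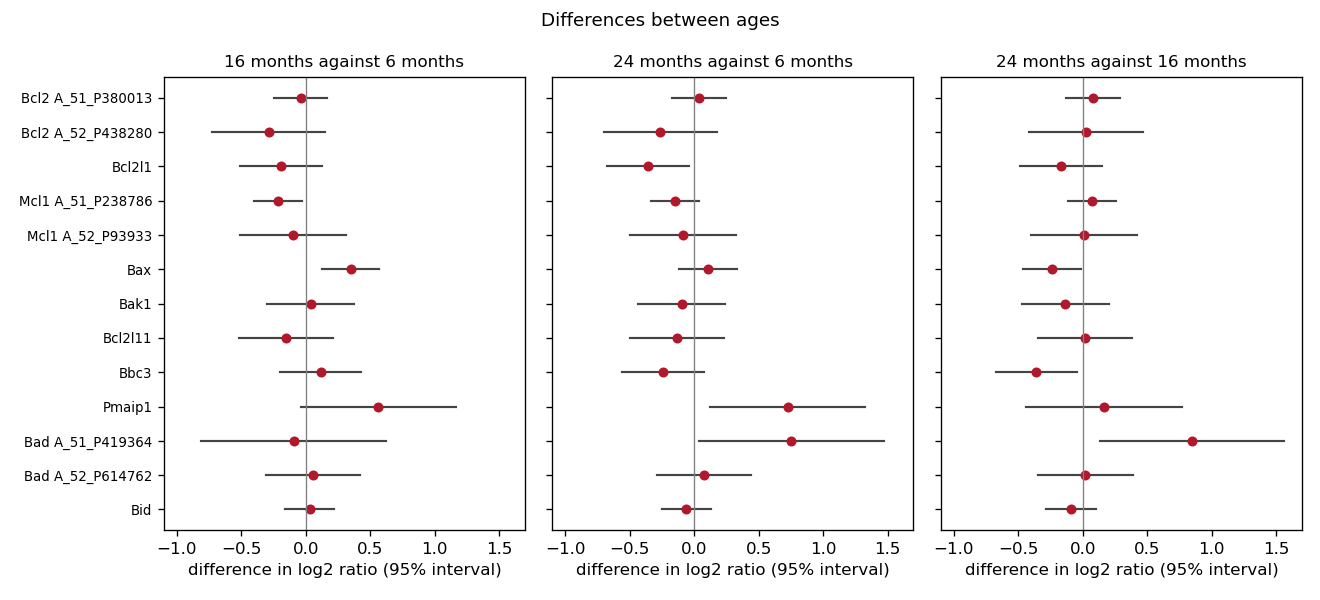
Difference in log2 ratio between ages (points, 3 arrays per age) with 95% intervals from limma for the 13 member probes in 3 comparisons, 16 against 6, 24 against 6 and 24 against 16 months. The intervals of Bax at 16 against 6 months and of Pmaip1 at 24 against 6 months lie above 0. So do those of Bad probe A_51_P419364 at 24 against 6 and at 24 against 16 months. The intervals of Mcl1 probe A_51_P238786 at 16 against 6 months and of Bcl2l1 at 24 against 6 months lie below 0. So do those of Bax and Bbc3 at 24 against 16 months. No difference passed after adjustment over all probes.

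Around the members, other genes of the same pathway were read from lists. Of 3 further pro-survival genes tested, 0 passed at any age, with 0.31 at 16 months and 0.24 at 24 months for Bcl2l2, the Bcl-w gene. The Bcl2a1b probe shares its accessions with near-identical Bcl2a1 copies, so its values are uncertain as to the gene. Of 9 other pro-death or Bcl2-like genes, Bcl2l13, a mitochondrial Bcl2-like protein, rose at all 3 ages (0.53, 0.55 and 0.46 at 6, 16 and 24 months). At 24 months the effector-like Bok (0.29) and the BH3-only Bmf (0.21) also rose, and Bnip3, a mitophagy receptor, fell (-0.26).

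Downstream of the mitochondria, 14 caspase and apoptosome genes were tested. Diablo, whose product neutralizes caspase inhibitors, rose at 6 and 16 months (0.32 and 0.41), and Casp8, the initiator caspase of the death receptors, rose at 16 and 24 months (0.66 and 0.43). Apaf1, the apoptosome scaffold, fell at 24 months (-0.47), when 2 genes of the list rose and 4 fell. Among 5 caspase inhibitor genes, Birc2 rose at each age (0.51, 0.69 and 0.49) and the giant inhibitor Birc6 fell at each (-0.27, -0.35 and -0.35).

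Of 20 upstream regulators, 7, 8 and 8 rose and 1, 2 and 2 fell at 6, 16 and 24 months, each gene being read from 1 probe. Over all tested probes 7.61%, 11.4% and 11.6% were called higher and 4.76%, 6.59% and 13.3% lower, which is the background for the counts of every list here. Bcl11b, a transcription factor of T lineage commitment, was 1.07, 0.91 and 0.93 higher than at 1 month. Stat5a, which acts below the interleukin 7 receptor, was 0.58, 0.55 and 0.59 higher, whereas its relative Stat5b fell at 24 months (-0.46). Mdm2, a p53 target and p53 inhibitor, rose at 6 and 16 months (0.45 and 0.51). In the death receptor arm, 0 of 8 genes passed at 6 months, and 2 rose and 2 fell at 16 and again at 24 months, where 18% and 24.9% of all tested probes were called. Fasl, the ligand of Fas, rose at these ages (0.65 and 0.52), and Fadd, the adaptor, fell (-0.23 and -0.23). In each list the comparisons among 6, 16 and 24 months gave 0 calls.

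The make-up of the cell suspension moved alongside these values. All 10 thymocyte marker genes were well above background, and their mean log2 ratio to 1 month was 0.19 to 0.36 on the 9 arrays. Markers of mature single-positive thymocytes (7 of 8 genes tested) averaged 0.24, 0.06 and 0.11 at 6 months, 0.75, 0.74 and 0.48 at 16 months, and 0.77, 0.12 and 0.53 at 24 months. Of the mice aged 16 and 24 months, 24 month replicate 2 was the lowest for this list. Its Pmaip1 value was -0.33, and 16 month replicate 3, the next lowest for the list (0.48), had -0.45. The 6 month mice, also low for the list, had Pmaip1 values of -0.63, -0.65 and -0.44. Pmaip1 was highest, at 0.48 and 0.43, in replicate 1 of 24 and of 16 months, the highest for the list. For 16 month replicate 2 a list average of 0.74 stood beside a Pmaip1 value of -0.02. This order was not particular to the mature list. B and plasma cell markers were also lowest at 6 months (0.15, 0.04 and 0.08) and highest in replicate 1 of 16 and of 24 months (0.93 and 0.70). They averaged 0.55 and 0.44 in 16 month replicates 2 and 3, and 0.25 and 0.62 in 24 month replicates 2 and 3. A link between Pmaip1 and either list was not tested. Double-positive markers averaged 0.14 to 0.53 over the arrays. Erythroid markers (6 of 10 genes tested) averaged from -1.41 to -0.84 at 6 months, from -0.47 to 1.64 at 16 months and from -1.27 to 1.14 at 24 months. Granulocyte markers ranged from -2.43 to 1.55 over the arrays, and 5 of the 8, S100a8, Ngp, Camp, Elane and Retnlg, were not well above background on every array. Thymic epithelium markers averaged between -0.85 and -0.03 and were below 1 month on every array. Macrophage markers averaged -0.14 to -0.07 at 6 months, 0.18 to 0.53 at 16 months and -0.17 to 0.75 at 24 months, and B and plasma cell markers 0.04 to 0.93 over the arrays. The part of these cells in the values of the members was not tested, apart from the fit with the erythroid level as a covariate.

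By likeness over the 9 arrays, the genes whose log2 ratios tracked 3 members most closely were found among 19357 other probes with a gene symbol. For Pmaip1 they were Efhd2, Nod1 and Tmem38a, with Pearson correlations of 0.982, 0.976 and 0.972. For Bbc3 they were Nr0b2, N6amt1 and Ahcyl2 (0.956, 0.954 and 0.943), and for Bcl2l1 Fam207a, Fam131b and Cit (0.989, 0.983 and 0.972). The highest of so many correlations over 9 arrays are descriptions, given with no test.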

How the data were processed

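Thymocyte RNA of 9 older C57BL/6 mice (Cy3) was hybridized against 1 month RNA (Cy5) on 9 Agilent arrays. Thymi were dissociated, strained, washed free of fat and treated to lyse red cells, per the labels. The scanner files hold intensity values as deposited: processed signals, background-subtracted and dye-normalized by LOWESS (smooth factor 0.25) per the file headers, and the raw mean and background signals. Version 7.5.1 of Agilent Feature Extraction is named in the headers and version 7.1 in the submitters' processing notes. The value table holds a score per channel, checked to be the authors' z-score of the log10 processed signal (Pearson r = 1), with no centring beyond it and both channels kept apart.

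Log2 of the Cy3 over the Cy5 processed signal was taken per array, so a value above 0 means more signal from the older mouse. The array medians lay between -0.03 and -0.01. Each array had 43790 features and 41534 non-control ones. Scanner outlier spots were left out (34 to 52 per array, 159 and 179 on 24 month replicates 1 and 3) and spots of a probe averaged. A probe entered the tests if the scanner software marked it well above background on the 3 Cy3 channels of an age or on all 9 Cy5 channels. This kept 37448 probes, of which 19605 had a current symbol for 15235 genes. Symbols came from RefSeq accessions (17627 probes), current symbols (2296) or synonyms (936). Of the tested probes 133 were saturated on at least 1 array, 0 of them members. One limma fit (limma 3.58.1, R 4.3.3) with a mean per age over all 9 arrays (prior degrees of freedom 1.94, residual 6) gave all tests. An age against 1 month tests 3 log ratios against 0, and the spread of the 1 month material is not in the test if that RNA was a pool. Benjamini-Hochberg adjustment covered all tested probes, two-sided, with a threshold of 0.05. The arrays are 3 per age, which limits the precision. All had 1 extraction day and 1 set of extraction settings. The fit was tested on simulated data.

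Alternatives were normexp (offset 50) with loess, the authors' scores, median centring, no filter on dim probes or a stricter one, a replicate block, the mean of 8 erythroid probes as a covariate, and leaving out each array. The members and the gene lists were chosen with earlier results of these data known. All 10 members are named. From each list the text names up to 4 genes past the threshold with the largest change, or up to 2 with the smallest p where none passed, shortened here for the lists of other cell types, and 1 list gene is not reported here. The likeness search took the 3 members with the widest range of age means, each gene read from its probe of highest mean signal. Promoters came from RefSeq, where 9 of 10 members matched 15 entries. Python 3.11.15 with numpy 2.4.6, pandas 2.3.3 and matplotlib 3.10.9 prepared tables and figures.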

Additional observations from a re-analysis of the deposited data

Results flagged for a closer look

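The Cy5 signal of Bcl2 probe A_52_P438280 stood apart on 1 array: 24 month replicate 2 had 1296, below the next lowest value of 1702 among the 9 arrays. The gap took 0.513 of the whole range on the log2 scale, above Dixon's 95% critical value for 9 values. Mcl1 probe A_52_P93933 had its lowest Cy5 signal on the same array, 10563 against 14367 for the next lowest, a gap of 0.505 of the range. This is 1 month material, and the same array had the lowest Cy3 signals for both probes, 1115 and 7199. That array was the dimmest over all probes, with a median Cy5 signal of 587 against 686 to 841 on the other arrays. Bax, Bak1 and Bid also had their lowest Cy5 signals on it (1583, 948 and 1811). For these genes the larger end gap was 0.127, 0.234 and 0.457 of the range, each below the critical value. The lowest Cy5 signal on this array was thus shared with other probes, while only the 2 flagged probes had a gap above the critical value. Whether the dimness of the array gave these gaps was not tested. Chance gives about 1 such gap in 20 groups, but the 13 probes examined share the arrays and are not independent.

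All 3 arrays of Bcl2 probe A_52_P438280 lay below 1 month at 24 months and above it at 6 months. The difference, -0.26 on the log2 scale, did not pass in limma (adjusted p = 0.690). Likewise the 3 values of Bad probe A_51_P419364 lay above 1 month at 24 months and below it at 16 months, with a difference of 0.85 that did not pass (adjusted p = 0.862). Without 24 month replicate 3 that difference was 0.44.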

How the results depend on the processing

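Over 1242 recomputed member values, 1173 kept their direction and side of the threshold, or had no call to lose, 62 lost a call, 7 gained one and 0 reversed with a call. The Bax calls at 16 and 24 months held under all 16 alternatives. Counts are given below as all probes, then member probes, beside 4632 and 3 at 6 months, 6746 and 3 at 16 months, and 9335 and 4 at 24 months against 1 month.

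With normexp and loess, and with no filter on dim probes, 2 member probes passed at 24 months. With the erythroid covariate, which sets the level of these markers to that of 1 month, 198 probes and 0 members passed at 6 months and 4255 and 1 at 16 months. Leaving out 1 array gave 290 to 5406 probes and 0 to 3 members at 6 months, 1240 to 7728 and 1 to 3 at 16 months, and 3505 to 8712 and 2 to 3 at 24 months. The lowest counts came without 6 month replicate 2, without 16 month replicate 2 and without 24 month replicate 1. Between ages leaving out 1 array gave 0 to 1 probes and 0 members in each comparison. The cause was not tested.

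With the replicate number as a block, 2427 probes and 1 member passed at 6 months, 1 member at 16 months and 2 at 24 months. The sample titles do not say whether equal numbers pair the arrays. Of 9 correlations between same-numbered arrays of different ages, 1 exceeded 0.1, and they ran from -0.31 to 0.10. These values show no pairing but cannot settle how the arrays were handled. Dim probes such as Bad A_51_P419364 limit what the signal over background can show.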

Other observations

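Within an array, Bax changed more than Bcl2 probe A_51_P380013 relative to 1 month. This pair was chosen after its values were seen and was not tested. The Bax log2 ratio exceeded that of Bcl2 by 0.27, 0.39 and 0.24 at 6 months, by 0.83, 0.84 and 0.39 at 16 months, and by 0.33, 0.23 and 0.56 at 24 months. The excess was above 0 on all 9 arrays and averaged 0.30 ± 0.08, 0.69 ± 0.25 and 0.37 ± 0.17 (SD, n = 3 each). With the Bcl2 probe A_52_P438280 in its place the size would differ, since the Bcl2 probes part at 16 and 24 months.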
